A study of Mus musculus with 12 samples.

Results

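A set of 10 genes that mark resident cardiac fibroblasts was followed through RNA from cardiomyocytes of pressure-loaded and unloaded mouse hearts. The genes are Pdgfra, Scara5, Tcf21, Meox1, Dcn, Lum, Dpt, Mfap4, Mfap5 and Pi16, and they were taken by name from a table of 49568 genes. All 10 were in the table, all 10 passed the filter on low counts, and none was at 0 in any library. Their values give the level of RNA of these marker genes in the cardiomyocyte preparations of each group and how it was made up. Some of the 10 genes changed after TAC relative to other fibroblast genes, so their sum is no measure of fibroblast amount alone.

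The study compared 4 groups of male mice, each with 3 libraries: dKO TAC, dKO sham, control TAC and control sham. In trans-aortic constriction (TAC) the aorta is tied to a smaller width, so that the heart pumps against a higher pressure; sham mice had the same operation but no tie. The dKO mice were MHC-MerCreMre/+; Mrtf-a-/-; Mrtf-bflox/flox, and the control mice were alphaMHC-MerCreMre/+. Both genotypes therefore carried the tamoxifen-inducible Cre, and both received 3 daily tamoxifen injections at 8 weeks of age. Hearts were taken 7 days after surgery, at 11 weeks. The protocol puts the surgery at 10 weeks and the series' design text at 8 weeks, and no other source used here settles it.

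MRTF-A and MRTF-B are coactivators of the serum response factor that carry signals from the actin cytoskeleton to genes, and dKO mice lack both in cardiomyocytes. The alphaMHC promoter drives Cre in cardiomyocytes, so Mrtf-b is deleted there, whereas Mrtf-a is missing from every cell of a dKO mouse. A dKO fibroblast thus lacks Mrtf-a and keeps Mrtf-b, and a control fibroblast has both. The cells were freed by Langendorff perfusion and the cardiomyocytes were collected by letting them settle for 10 min. Settling enriches the large cardiomyocytes and leaves some smaller cells behind in the pellet. Whether libraries came from separate hearts or from pooled ones is not stated in the labels, so p-values measure only the spread between these libraries.

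Fibroblasts of the unloaded heart derive largely from the epicardium, keep up the collagen network and carry the receptor PDGFRα on their surface. The transcription factor TCF21 is needed for the lineage to form. After pressure load these cells proliferate and lay down matrix, and activated fibroblasts gain genes such as Postn while part of the resting program is lost. The 10 genes cover several jobs in fibroblasts. Pdgfra and Scara5 encode surface receptors, Tcf21 and Meox1 transcription factors, Dcn, Lum and Dpt proteins that coat and space collagen fibrils, Mfap4 and Mfap5 proteins of microfibrils and elastic fibres, and Pi16 a peptidase inhibitor of the CAP family that marks a widely shared fibroblast state.

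Total counts lay between 20082000 and 29675212 per library. Mkl1, the table's name for Mrtf-a, stood at 2.22 to 2.93 CPM (counts-per-million of the scaled library) in dKO TAC and 2.15 to 3.20 CPM in dKO sham, against 9.32 to 16.01 CPM in control TAC and 7.59 to 11.4 CPM in control sham. It was lower in dKO after TAC by a log2 change of -2.42 ± 0.27 (SE; edgeR, Benjamini-Hochberg adjusted p = 0.00182) and after sham by -1.75 ± 0.27 (edgeR, Benjamini-Hochberg adjusted p = 0.0409). Mkl2, the name for Mrtf-b, was at -0.54 ± 0.23 after TAC and -0.88 ± 0.23 after sham and was not called in either (edgeR, Benjamini-Hochberg adjusted p = 0.518 and 0.507). Which Mkl2 exons are removed is not stated in the labels, so its count is a weak check of the deletion. Among 12 listed cardiomyocyte markers none was at 0, and their summed level of 55730 to 161000 CPM was 47 to 660 times that of the 10 fibroblast genes.

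Libraries dKO sham 1 and dKO TAC 2 stood apart from the rest of their groups. Across 9745 genes, the deviation of a library from its 2 fellow replicates ran against transcript length in these libraries (Spearman rho -0.62 and -0.60). The other dKO libraries had rho between 0.46 and 0.65 and the control libraries between -0.10 and 0.11. Each of the other dKO libraries had the library that stood apart among its 2 fellows. Its rho therefore carries the reverse of that library's trend and shows no length trend of its own. Mitochondrially encoded genes took 16.5% and 15.3% of counts in dKO sham 1 and dKO TAC 2, against 23.2% to 32.6% in the other 10. All comparisons were also fitted without dKO sham 1 and dKO TAC 2.

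The 10 genes together took 0.0198% to 0.140% of counts. Their summed level was 617, 611 and 574 CPM in dKO TAC libraries 1 to 3, against 244, 339 and 419 CPM in dKO sham. In control hearts it was 334, 583 and 1252 CPM after TAC, against 314, 471 and 308 CPM after sham. The dKO TAC libraries all lay above the dKO sham libraries, whereas control TAC 1 lay below control sham 2 and the control groups overlapped. In RNA from bulk preparations, fewer cells of a type and less RNA per cell cannot be told apart, so these sums are levels of RNA and not numbers of fibroblasts. Which cells of the preparation made these transcripts was not tested, and fibroblast RNA is used here as a name for the RNA of fibroblast marker genes.

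Fibroblast RNA varied most within control TAC. The sum in control TAC 3 was 3.75 times that in control TAC 1, against a ratio of highest to lowest of 1.07 in dKO TAC, 1.72 in dKO sham and 1.53 in control sham. Control TAC 3 held the highest level of 8 of the 10 genes over the 12 libraries, all but Meox1, highest in control TAC 2, and Scara5, highest in control sham 2. The log2 ratio of the mean sums, TAC over sham, was 0.85 in dKO (0.66 to 1.04 with each library left out in turn) and 0.99 in control, where it was 0.33 without control TAC 3. Part of the rise lay in Mfap4, Mfap5 and Meox1. They averaged 64.3, 77.8 and 46.3 CPM in dKO TAC, of a mean sum of 601 CPM. In dKO sham they averaged 6.09, 10.4 and 14.3 CPM, of 334 CPM. In control they averaged 76.1, 74.8 and 48.0 CPM of 723 CPM after TAC. After sham they averaged 4.52, 10.1 and 11.55 CPM of 365 CPM. The 12 cardiomyocyte markers summed to 55730 to 64610 CPM in dKO TAC, 70900 to 161000 CPM in dKO sham, 59110 to 95480 CPM in control TAC and 71030 to 93370 CPM in control sham. Their sum was lower in dKO TAC than in dKO sham without overlap. The highest dKO sham library, at 161000 CPM, was dKO sham 1, which stood apart, and the others were at 78440 and 70900 CPM. With all libraries the median log2 change of the 12 markers in dKO was -0.76, beside -0.01 over all tested genes. The part of this in the fibroblast sums was not tested.

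**Figure D1:**
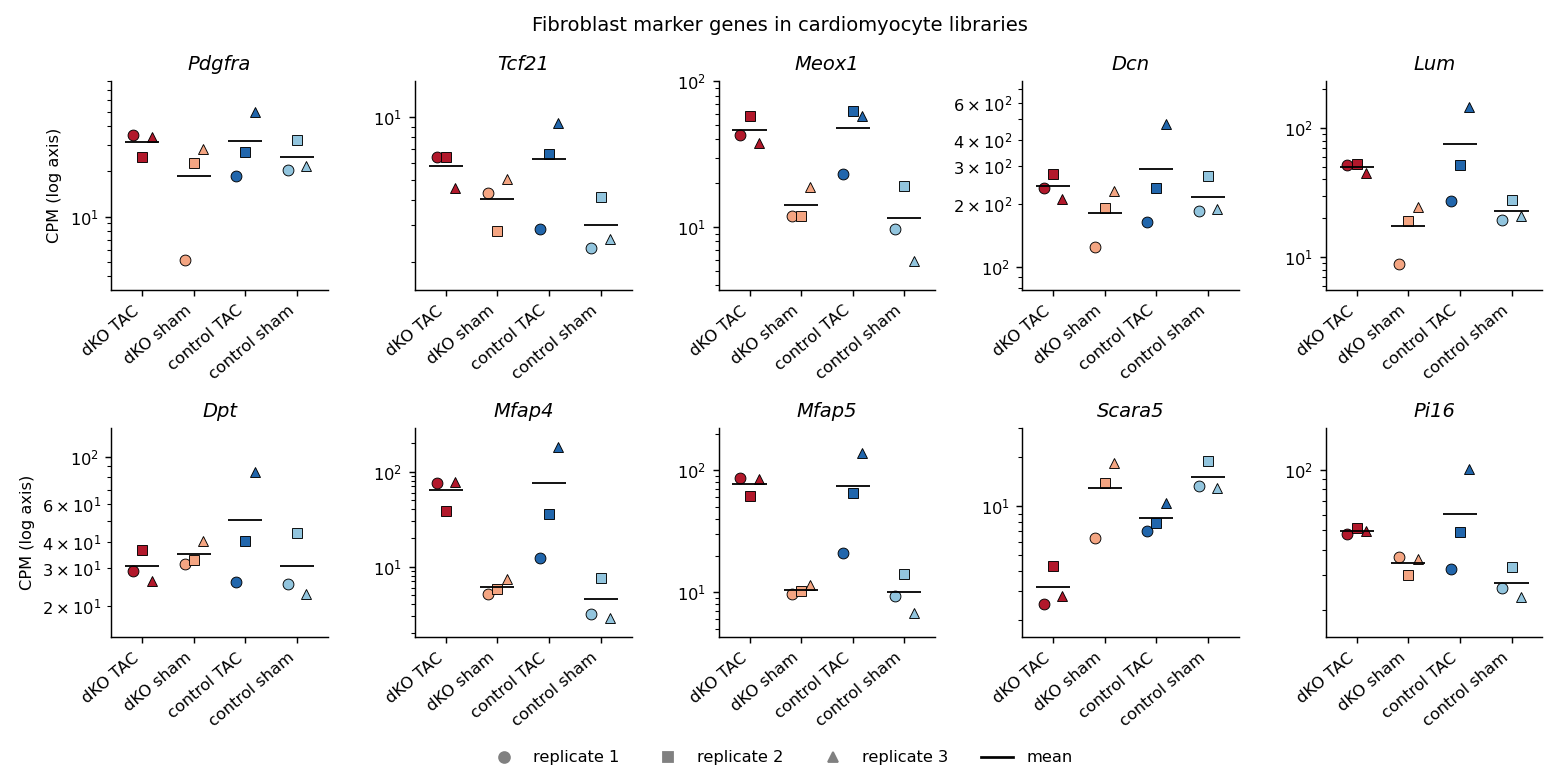
Level of each of the 10 fibroblast genes in CPM (log axis) in the 12 libraries, by group, with symbols for replicates 1 to 3 and a line at the group mean. Control TAC 3 is the highest library for 8 genes, Mfap4, Mfap5 and Meox1 are higher in every TAC library than in every sham library of the same genotype, and Scara5 is lower in every TAC library than in every sham library of the same genotype.

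To set levels of different genes side by side, each was divided by its exon length. This length is the union of all annotated exons, which can exceed the transcripts present. Levels also ran against transcript length in dKO sham 1 and dKO TAC 2, so the order of genes is approximate. Dcn had the highest CPM per kb in 10 of the 12 libraries and Mfap4 in the other 2. In dKO TAC the order of the mean levels was Dcn at 41.4 ± 5.70 CPM per kb (SD, n = 3), Mfap4 at 33.5 ± 11.8, Mfap5 at 21.7 ± 3.82, Meox1 at 20.8 ± 4.65, Lum at 20.4 ± 1.66, Dpt at 17.8 ± 3.15, Pi16 at 7.81 ± 0.26, Pdgfra at 3.13 ± 0.54, Tcf21 at 2.48 ± 0.46 and Scara5 at 0.523 ± 0.156. The ranges of neighbours in this order overlapped from Dcn down to Dpt, and also for Pdgfra and Tcf21.

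In dKO sham the order was Dcn at 31.1 ± 9.04 CPM per kb, Dpt at 20.2 ± 2.78, Lum at 7.14 ± 3.27, Meox1 at 6.42 ± 1.83, Pi16 at 5.37 ± 0.58, Mfap4 at 3.17 ± 0.59, Mfap5 at 2.90 ± 0.28, Scara5 at 2.11 ± 0.99, Pdgfra at 1.86 ± 1.20 and Tcf21 at 1.72 ± 0.49 (SD, n = 3). Neighbours did not overlap between Dpt and Lum or between Pi16 and Mfap4. In control TAC every neighbouring pair overlapped except Pi16, at 9.53 ± 5.68 CPM per kb, and Pdgfra, at 3.18 ± 1.62. Dcn led there with 50 ± 27.9 CPM per kb, followed by Mfap4 at 39.6 ± 47.3, and Scara5 came last with 1.39 ± 0.29. In control sham Dcn led with 36.8 ± 8.29 CPM per kb, Dpt followed with 17.9 ± 6.74 and Tcf21 came last with 1.28 ± 0.41, while Scara5 at 2.47 ± 0.54 stood level with Pdgfra at 2.49 ± 0.64 and Mfap4 at 2.35 ± 1.36. By group means, Mfap4 thus held the second place in both TAC groups and the sixth or ninth in the sham groups. Scara5 held the last place in both TAC groups and the eighth in both sham groups by group means. The place of Mfap4 did not hold in every TAC library. In control TAC 1 it was at 6.47 CPM per kb, under Dpt at 15.1, Lum at 11.18 and Meox1 at 10.49. In dKO TAC 2 it was at 19.85, under Meox1 at 26, Lum at 21.36 and Dpt at 21.3. In control TAC 3 it was at 93.73.

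TAC was compared with sham within each genotype. Both microfibril genes and the transcription factor Meox1 were higher after TAC in dKO and in control hearts, by 3.24-fold to 16.8-fold in group mean CPM. Scara5 was lower after TAC in dKO hearts, at 0.248 of the sham level. The classic markers of the lineage did not pass the test: Pdgfra, Tcf21 and Dcn had changes between 0.36 and 1.07 on the log2 scale. Fits used edgeR's quasi-likelihood test over all 12 libraries and 14712 genes, and a gene was called at a Benjamini-Hochberg adjusted p under 0.05.

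In dKO hearts, 3 of the 10 genes were called higher after TAC, where 4.2% of all tested genes were, and 1 was called lower, where 3.19% were (7.39% in either direction). In control hearts, 3 of 10 were called higher, where 1.9% of all tested genes were, and 0 lower, where 0.347% were (2.25% in either direction). At an unadjusted p under 0.05 the counts were 5 of 10 in dKO, against 27.6% of all tested genes, and 7 of 10 in control, against 16.9%. The median log2 change of the 10 genes was 0.64 in dKO and 1.11 in control, beside -0.01 and 0.00 over all tested genes, and the control median was 0.62 without control TAC 3. In dKO the libraries of TAC and sham did not overlap for 5 genes that were higher (16.2% of all tested genes) and for 1 that was lower (14.5%). In control they did not overlap for 3 higher genes (11% of all tested genes) and 1 lower gene (10.8%).

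**Figure D2:**
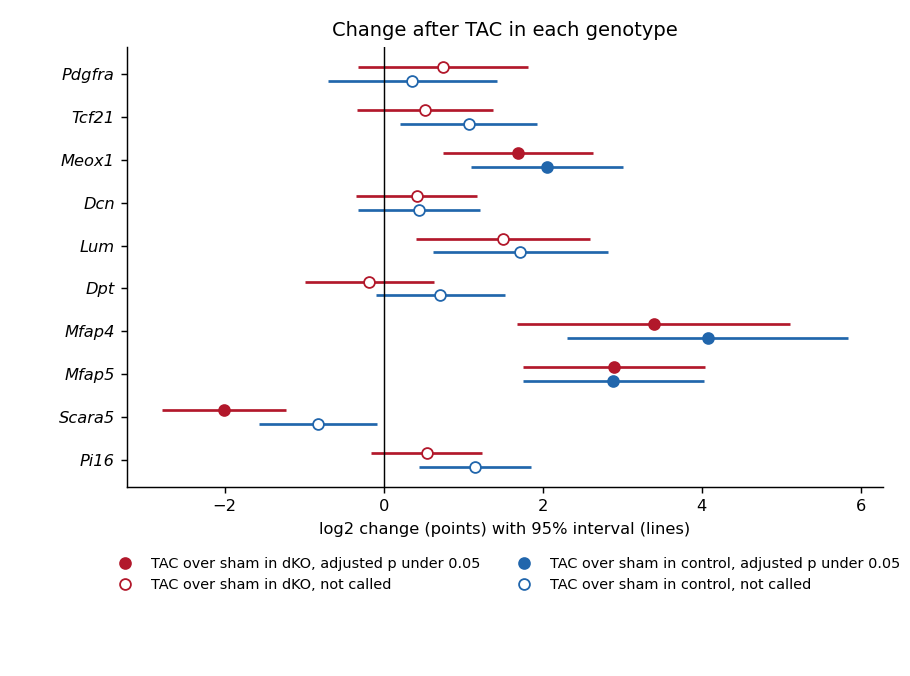
Log2 change after TAC for each gene, TAC over sham, in dKO (red) and control (blue) hearts, with 95% intervals of the edgeR fit; filled points passed a Benjamini-Hochberg adjusted p of 0.05. Mfap4, Mfap5 and Meox1 lie right of 0 in both genotypes, with intervals from 0.75 to 5.85 at the extremes, and Scara5 lies left of 0 in both, past the threshold in dKO.

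Mfap4 (ENSMUSG00000042436, chromosome 11, 61485431 to 61488900 on the plus strand of GRCm38) encodes a glycoprotein that binds elastin and fibrillin and is found on elastic fibres. It stood at 76.3, 38.2 and 78.6 CPM in dKO TAC, against 5.16, 5.76 and 7.34 CPM in dKO sham. Control libraries stood at 12.4, 35.7 and 180.2 CPM after TAC, against 3.15, 7.53 and 2.86 CPM after sham. Each TAC library lay above each sham library of its genotype, and the control TAC libraries differed among themselves by 14.5 times. The log2 change was 3.40 ± 0.79 (SE) in dKO (edgeR, Benjamini-Hochberg adjusted p = 0.0252) and 4.08 ± 0.82 in control (edgeR, Benjamini-Hochberg adjusted p = 0.0265).

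Mfap5 (ENSMUSG00000030116, chromosome 6, 122505845 to 122529290, plus strand) encodes a small microfibril protein that binds fibrillin. Its level was 86.9, 62.0 and 84.5 CPM in dKO TAC, against 9.59, 10.1 and 11.5 CPM in dKO sham. Control libraries had 20.8, 64.9 and 138.6 CPM after TAC, against 9.28, 14.2 and 6.81 CPM after sham. The groups did not overlap in either genotype, and the lowest TAC value was that of control TAC 1. The log2 change was 2.90 ± 0.53 in dKO (edgeR, Benjamini-Hochberg adjusted p = 0.00944) and 2.89 ± 0.53 in control (edgeR, Benjamini-Hochberg adjusted p = 0.019).

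Meox1 (ENSMUSG00000001493, chromosome 11, 101877510 to 101894374, minus strand) encodes a homeobox transcription factor that is known in mouse hearts as a factor switched on in stressed fibroblasts. It had 42.8, 57.9 and 38.1 CPM in dKO TAC, against 11.9, 12.01 and 19.0 CPM in dKO sham. Control libraries had 23.4, 62.8 and 57.7 CPM after TAC, against 9.69, 19.1 and 5.92 CPM after sham. All 6 TAC libraries lay above all 6 sham libraries. The log2 change was 1.69 ± 0.43 in dKO and 2.06 ± 0.44 in control (edgeR, Benjamini-Hochberg adjusted p = 0.036 in each).

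Scara5 (ENSMUSG00000022032, chromosome 14, 65666403 to 65764826, plus strand) encodes a class A scavenger receptor known as a ferritin receptor. It stood at 2.503, 4.27 and 2.79 CPM in dKO TAC, against 6.39, 13.9 and 18.3 CPM in dKO sham. The control hearts had 7.00, 7.94 and 10.4 CPM after TAC, against 13.4, 18.8 and 12.95 CPM after sham. TAC libraries lay below sham libraries in both genotypes without overlap, and dKO sham 1, which stood apart, was the lowest sham library. Scara5 fell by 2.01 ± 0.36 on the log2 scale in dKO (edgeR, Benjamini-Hochberg adjusted p = 0.00865). In control the change was -0.83 ± 0.34 and was not called (edgeR, unadjusted p = 0.0316, Benjamini-Hochberg adjusted p = 0.237), with a 95% interval of -1.57 to -0.09. Without both libraries that stood apart it was called in control as well, at the same -0.83 (edgeR, Benjamini-Hochberg adjusted p = 0.0481).

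Each fit was repeated with 1 library left out. In dKO, Mfap5 was called with each of the 12 libraries left out in turn, with log2 changes of 2.81 to 3.04. Scara5 in dKO was called in all cases but 1, without dKO TAC 1 (-1.86, edgeR, Benjamini-Hochberg adjusted p = 0.0563). Mfap4 in dKO was not called without dKO sham 1 (adjusted p = 0.063), dKO sham 2 (0.0643), dKO TAC 1 (0.09) or dKO TAC 3 (0.0786), by edgeR with Benjamini-Hochberg adjustment, while its log2 change stayed at 3.24 to 3.36. Meox1 in dKO was not called without any of dKO sham 1, dKO sham 2, dKO TAC 1, dKO TAC 2, dKO TAC 3 or control sham 1, with edgeR Benjamini-Hochberg adjusted p between 0.0506 and 0.106 and log2 changes of 1.51 to 1.82. Calls over all genes, 1087 with every library, numbered 210 to 896 in the 4 fits that lost Mfap4. Without both libraries that stood apart, Mfap5 at 2.98 and Scara5 at -2.60 were still called in dKO, while Mfap4 at 3.56 and Meox1 at 1.38 were not (edgeR, Benjamini-Hochberg adjusted p = 0.058 and 0.132).

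In control hearts none of the 10 genes was called when control sham 1, control sham 3, control TAC 2 or control TAC 3 was left out. Calls over all tested genes then numbered 2 of 15103, 3 of 15016, 14 of 15060 and 109 of 14905, in that order. The edgeR Benjamini-Hochberg adjusted p was then 0.0613 to 0.16 for Mfap4, 0.0505 to 0.126 for Mfap5 and 0.128 to 0.169 for Meox1. Meox1 in control was also not called without dKO sham 2, dKO TAC 1 or dKO TAC 3 (edgeR, Benjamini-Hochberg adjusted p = 0.0511, 0.0608 and 0.0542). The log2 change of Mfap4 was 2.42 without control TAC 3 and that of Mfap5 was 2.09, whereas Meox1 was at 1.91. Without control TAC 1 there were 6 of the 10 genes called higher, with Lum at 2.11, Tcf21 at 1.41 and Pi16 at 1.45 added (edgeR, Benjamini-Hochberg adjusted p = 0.014, 0.0269 and 0.00937). Of all 15013 genes tested in that fit 875 were called higher. Fitted on the 6 control libraries alone, 0 of 10 were called, and 2 of 14114 tested genes, with Mfap4 at 4.09, Mfap5 at 2.90 and Meox1 at 2.06. With limma-voom Mfap4 in control was at 3.40 and was not called (Benjamini-Hochberg adjusted p = 0.0905).

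The other 6 genes were not called by edgeR after TAC in either genotype. In control DESeq2 called Lum and Pi16 higher (Benjamini-Hochberg adjusted p = 0.0132 and 0.0197), and so did edgeR without the filter on low counts (Benjamini-Hochberg adjusted p = 0.0085 and 0.0166). In dKO Lum was called by DESeq2 (Benjamini-Hochberg adjusted p = 0.0224) and by edgeR without the filter (0.0146), without control TAC 1 (0.0384) and without control TAC 3 (0.0246). Without control TAC 3 the log2 change in control was 0.81 for Lum, 0.57 for Pi16, 0.67 for Tcf21 and 0.11 for Dpt, none called.

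Lum (ENSMUSG00000036446, chromosome 10, 97565128 to 97572703, plus strand) encodes lumican, a small leucine-rich proteoglycan that binds collagen fibrils. It had 52.1, 52.3 and 45.1 CPM in dKO TAC, against 8.85, 18.9 and 24.7 CPM in dKO sham. Lum in control was at 27.4, 51.9 and 144.8 CPM after TAC, against 19.5, 27.7 and 20.8 CPM after sham. The dKO groups did not overlap, and the control groups overlapped only because control TAC 1 lay just under control sham 2. The log2 change was 1.51 ± 0.50 in dKO and 1.72 ± 0.50 in control (edgeR, Benjamini-Hochberg adjusted p = 0.0831 and 0.105).

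Pi16 (ENSMUSG00000024011, chromosome 17, 29317680 to 29330593, plus strand) had 48.1, 51.4 and 49.5 CPM in dKO TAC, against 36.7, 29.9 and 35.9 CPM in dKO sham. In control hearts it had 31.9, 48.9 and 101.2 CPM after TAC, against 25.9, 32.9 and 23.4 CPM after sham. The dKO TAC libraries were the closest set of replicates of any gene here, with a ratio of highest to lowest of 1.07, and they did not overlap dKO sham. The log2 change was 0.54 ± 0.32 in dKO and 1.15 ± 0.33 in control (edgeR, Benjamini-Hochberg adjusted p = 0.298 and 0.0952).

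Tcf21 (ENSMUSG00000045680, chromosome 10, 22817281 to 22820174, minus strand), the basic helix-loop-helix factor of the lineage, had the fewest counts, down to 51 in control sham 1. It stood at 6.46, 6.42 and 4.56 CPM in dKO TAC, against 4.30, 2.81 and 5.05 CPM in dKO sham. Tcf21 in control stood at 2.88, 6.62 and 9.37 CPM after TAC, against 2.33, 4.11 and 2.57 CPM after sham. The groups overlapped in both genotypes. Its log2 change was 0.53 ± 0.39 in dKO and 1.07 ± 0.40 in control (edgeR, Benjamini-Hochberg adjusted p = 0.403 and 0.185).

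Dcn (ENSMUSG00000019929, chromosome 10, 97479609 to 97518143, plus strand) encodes decorin, a small leucine-rich proteoglycan like lumican, and lies on the same strand upstream of Lum. Its level was 237.5, 276.7 and 210.6 CPM in dKO TAC, against 124.5, 190.5 and 228.8 CPM in dKO sham. Control libraries had 163.7, 237.1 and 474.8 CPM after TAC, against 185.3, 270.5 and 188.2 CPM after sham. The groups overlapped in both genotypes, and control TAC 1 was below all 3 control sham libraries. Its log2 change was 0.41 ± 0.35 in dKO, with a 95% interval of -0.35 to 1.18, and 0.44 ± 0.35 in control, with an interval of -0.32 to 1.21. Without control TAC 3 the change of Dcn in control was -0.10, and in dKO it was 0.20 without dKO sham 1 and 0.10 without both libraries that stood apart.

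Dpt (ENSMUSG00000026574, chromosome 1, 164796644 to 164824266, plus strand) encodes dermatopontin, a matrix protein that binds decorin. It had 29.3, 36.7 and 26.2 CPM in dKO TAC, against 31.4, 32.8 and 40.3 CPM in dKO sham, with overlap. In control hearts it had 26.0, 40.3 and 84.9 CPM after TAC, against 25.4, 44.1 and 22.8 CPM after sham, also with overlap. Dpt was the only gene of the 10 besides Scara5 with a change below 0, at -0.18 ± 0.37 in dKO (95% interval -0.99 to 0.63), and it was at 0.71 ± 0.37 in control (-0.10 to 1.52). Without both libraries that stood apart it was at -0.40 in dKO.

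Pdgfra (ENSMUSG00000029231, chromosome 5, 75152292 to 75198215, plus strand) encodes the receptor that defines cardiac fibroblasts in most reporter and sorting schemes. It stood at 35.0, 25.1 and 34.0 CPM in dKO TAC, against 5.16, 22.6 and 28.1 CPM in dKO sham. In control hearts it stood at 18.6, 27.0 and 50 CPM after TAC, against 20.6, 32.3 and 21.8 CPM after sham. The groups overlapped in both genotypes, and dKO sham 1, with 84 counts, lay far under all other libraries. The log2 change was 0.75 ± 0.49 in dKO (95% interval -0.32 to 1.81) and 0.36 ± 0.49 in control (-0.71 to 1.42). Without dKO sham 1 it was 0.31 in dKO, and without control TAC 3 it was -0.12 in control.

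The genotypes were then compared within each operation. After TAC, 0 of 10 genes were called between dKO and control by edgeR, where 0.428% of all tested genes were, and 1, Scara5, had an unadjusted p under 0.05, where 8.87% of all tested genes had. After sham, 0 of 10 were called by edgeR, where 0.068% of all tested genes were, and 0 had an unadjusted p under 0.05, where 9.25% had. Log2 changes of dKO over control ran from -1.40 to 0.06 after TAC and from -0.41 to 0.44 after sham. The median of the 10 was -0.26 after TAC and 0.11 after sham, beside -0.03 and 0.02 over all tested genes. After sham no gene separated the groups, while 9.27% of all tested genes were higher and 9.42% lower in dKO without overlap.

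Of the 10 genes, Scara5 was the closest to a difference by genotype. After TAC it stood at 2.503, 4.27 and 2.79 CPM in dKO, against 7.00, 7.94 and 10.4 CPM in control, a log2 change of -1.40 ± 0.35 with a 95% interval of -2.17 to -0.63. The groups did not overlap, as was so for 7.79% of all tested genes in that direction. Its unadjusted p was 0.00182 and the edgeR Benjamini-Hochberg adjusted p 0.138. DESeq2 called it lower in dKO (Benjamini-Hochberg adjusted p = 0.00912), as it did 0.802% of all tested genes, and so did edgeR without dKO sham 1 (adjusted p = 0.0212) or without both libraries that stood apart (adjusted p = 0.0102, Benjamini-Hochberg). After sham the change of Scara5 was -0.22 ± 0.34.

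For the other genes after TAC, the intervals of dKO over control covered changes in both directions. Dpt was at -0.71 ± 0.37 (95% interval -1.52 to 0.10), Lum at -0.58 ± 0.49 (-1.65 to 0.48), Pi16 at -0.29 ± 0.32 (-0.99 to 0.41) and Dcn at -0.27 ± 0.35 (-1.03 to 0.49). Mfap4 at -0.24 ± 0.71, Tcf21 at -0.11 ± 0.39, Meox1 at -0.05 ± 0.42, Pdgfra at -0.02 ± 0.49 and Mfap5 at 0.06 ± 0.48 lay within 1 SE of 0. These values moved with control TAC 3. Without it Mfap4 was at 1.43, Pdgfra at 0.47, Lum at 0.34, Pi16 at 0.31, Tcf21 at 0.30 and Dcn at 0.28, and none was called.

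The change after TAC did not differ by genotype past the threshold for any gene, member or not: 0 of 10 and 0% of all tested genes were called for the interaction by edgeR. At an unadjusted p under 0.05 it was 1 of 10, against 4.74% of all tested genes (697 genes), and DESeq2 called 8 genes in all, none of them among the 10. The gene was Scara5, whose change after TAC was 1.18 ± 0.49 lower in dKO than in control on the log2 scale (edgeR, unadjusted p = 0.0318, Benjamini-Hochberg adjusted p = 0.841). A call of Scara5 in dKO and none in control is therefore no difference between the genotypes that passed a test. For Mfap5 the difference was 0.01 ± 0.70, with a 95% interval of -1.51 to 1.53, so changes that differ by over 2-fold are within the interval.

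The makeup of the fibroblast RNA was then set out as the share of each gene in the counts of all 10. Dcn made up 38.5%, 45.3% and 36.7% in dKO TAC, against 51.0%, 56.1% and 54.6% in dKO sham. In control it made up 49.0%, 40.7% and 37.9% after TAC, against 58.9%, 57.4% and 61.1% after sham. Each TAC library had a smaller Dcn share than each sham library of its genotype. The mean Dcn level was not lower, at 241.6 CPM in dKO TAC and 181.3 CPM in dKO sham. In control it was 291.9 CPM after TAC and 214.6 CPM after sham. Control TAC 1, at 163.7 CPM, was below every control sham library. The shares of Mfap4 and Mfap5 were larger after TAC. Mfap4 averaged 10.8% ± 3.97 (SD, n = 3) in dKO TAC and 1.86% ± 0.23 in dKO sham, and Mfap5 12.98% ± 2.48 in dKO TAC and 3.22% ± 0.62 in dKO sham.

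In control, Mfap4 averaged 8.08% ± 5.60 after TAC and 1.18% ± 0.37 after sham, and Mfap5 9.48% ± 2.81 after TAC and 2.73% ± 0.45 after sham. Scara5 averaged 0.530% ± 0.151 in dKO TAC and 3.69% ± 0.94 in dKO sham, and 1.43% ± 0.63 in control TAC and 4.15% ± 0.14 in control sham. Shares of a whole move against each other, so a smaller share of Dcn or Scara5 follows in part from more Mfap4 and Mfap5. Pdgfra held 2.12% in dKO sham 1, against 6.66% and 6.71% in the other dKO sham libraries.

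**Figure D3:**
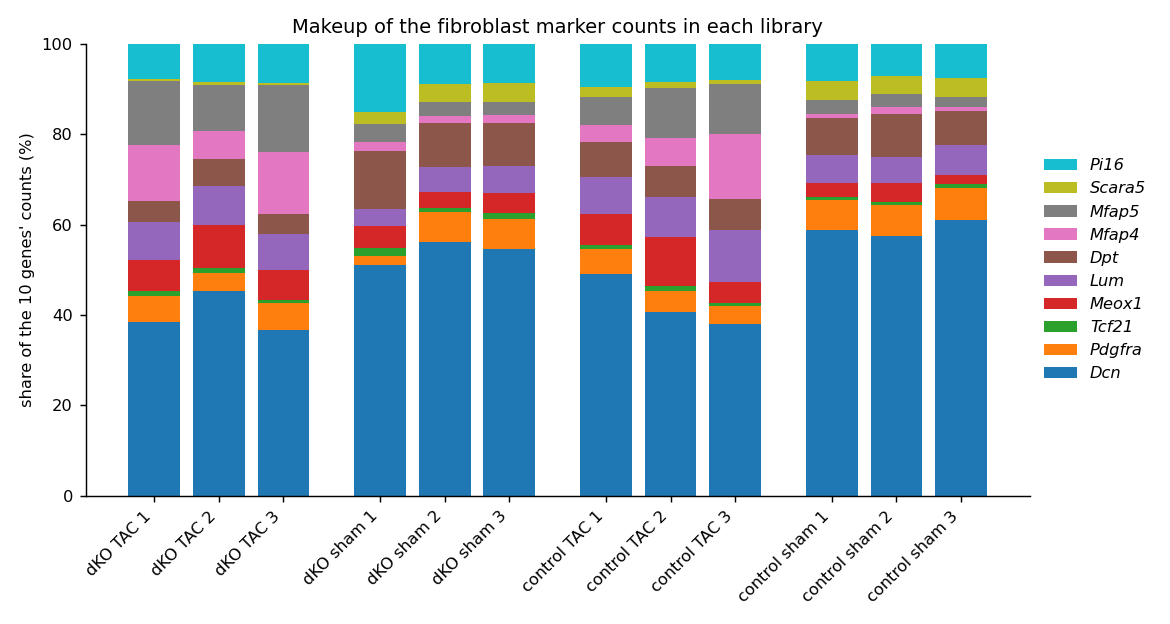
Share of each gene in the counts of the 10 fibroblast genes, in percent, for each of the 12 libraries, stacked to 100. The Dcn share is 36.7% to 49.0% in the TAC libraries and 51.0% to 61.1% in the sham libraries, while the Mfap4 and Mfap5 shares are larger and the Scara5 share is smaller after TAC.

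A yardstick from outside the 10 genes was given by 22 other genes listed for resident fibroblasts, such as Ddr2, Fbln1, Tnxb and Clec3b. Whether only fibroblasts made the RNA of these genes was not tested. Cd34 and Ly6a, in this list, averaged 130.4 and 136.9 CPM of a mean sum of 877 CPM in dKO sham. In control TAC they averaged 231 and 112.9 CPM of 1392 CPM. The 22 genes were not level themselves: 19 of 22 had a change above 0 after TAC in control and 12 of 22 in dKO. In control Cd34 averaged 231 CPM after TAC and 121.7 CPM after sham, Fbln2 208.5 and 77.8 CPM, and Mmp2 137.7 and 34.3 CPM. The summed level of the 22 genes was 1170, 1205 and 1025 CPM in dKO TAC, against 781, 846 and 1005 CPM in dKO sham. In control it was 788, 1273 and 2115 CPM after TAC, against 737, 1030 and 726 CPM after sham. The order of the libraries within control was that of the 10 genes, with control TAC 3 highest and control sham 3 lowest. After TAC, 1 of 22 was called higher and 1 lower in dKO, where 4.2% and 3.19% of all tested genes were. In control 2 were called higher and 0 lower, where 1.9% and 0.347% were. The median log2 changes were 0.35 in dKO and 0.40 in control.

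Serpinf1, which encodes pigment epithelium-derived factor, was called in both genotypes, at 2.05 ± 0.50 in dKO (edgeR, Benjamini-Hochberg adjusted p = 0.0295) and 2.18 ± 0.50 in control (edgeR, Benjamini-Hochberg adjusted p = 0.046). Pcolce, an enhancer of procollagen cleavage, was called in control at 1.46 ± 0.33 (edgeR, Benjamini-Hochberg adjusted p = 0.0408). Clec3b, which encodes tetranectin, was called lower in dKO, with a mean of 3.49 CPM after TAC and 17.0 CPM after sham and a log2 change of -2.28 ± 0.33 (edgeR, Benjamini-Hochberg adjusted p = 0.0041). In control Clec3b was at -0.68 ± 0.31 and was not called (edgeR, Benjamini-Hochberg adjusted p = 0.299). The difference of these changes, dKO minus control, was -1.60 ± 0.45 and was not called (edgeR, Benjamini-Hochberg adjusted p = 0.841). After TAC, Clec3b in dKO over control was at -1.39 ± 0.32, also not called (edgeR, Benjamini-Hochberg adjusted p = 0.102).

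Counted per 100 counts of these 22 genes, the 10 genes summed to 52.7, 50.7 and 56.0 in dKO TAC, against 31.2, 40.1 and 41.7 in dKO sham. In control they summed to 42.4, 45.8 and 59.2 after TAC, against 42.7, 45.7 and 42.4 after sham. The dKO groups did not overlap, and in control 2 of 3 TAC libraries lay at the sham level. Scara5 had 0.214, 0.355 and 0.272 per 100 in dKO TAC, against 0.818, 1.64 and 1.83 in dKO sham. In control Scara5 had 0.889, 0.623 and 0.494 per 100 after TAC, against 1.82, 1.83 and 1.78 after sham. The control sham libraries, which differed by 1.45 times in Scara5 CPM, were nearly level on this scale, and all TAC libraries lay below them.

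Mfap4 had 6.52, 3.17 and 7.66 counts per 100 in dKO TAC, against 0.661, 0.681 and 0.731 in dKO sham. In control Mfap4 had 1.58, 2.80 and 8.52 per 100 after TAC, against 0.428, 0.731 and 0.394 after sham. Mfap4 was thus higher after TAC relative to other fibroblast genes in every library of both genotypes. Dcn had 20.3, 23.0 and 20.5 per 100 in dKO TAC, against 15.9, 22.5 and 22.8 in dKO sham, and 20.8, 18.6 and 22.5 in control TAC, against 25.1, 26.3 and 25.9 in control sham.

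The fit was repeated with libraries scaled to the summed counts of the 22 genes, a setting chosen after the values were seen. On this scale the median of all tested genes moved to -0.38 for TAC over sham in dKO and -0.56 in control. A gene at 0 thus kept pace with the sum of the 22 genes and lay above the library at large. Mfap4 was at 3.06 ± 0.52 in dKO and 3.05 ± 0.52 in control (edgeR, Benjamini-Hochberg adjusted p = 0.000761 and 0.00177). Mfap5 was at 2.54 ± 0.41 in dKO and 2 ± 0.40 in control (edgeR, Benjamini-Hochberg adjusted p = 0.000537 and 0.00757). Scara5 was called lower in both, at -2.35 ± 0.39 in dKO and -1.44 ± 0.38 in control (edgeR, Benjamini-Hochberg adjusted p = 0.00069 and 0.0394). Meox1 was called in dKO at 1.33 ± 0.39 and not in control at 1.42 ± 0.39 (edgeR, Benjamini-Hochberg adjusted p = 0.0403 and 0.0509).

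On the same scale, Pdgfra, Dcn and Dpt in control had changes of -0.38, -0.32 and -0.05, below 0 where they lay above 0 relative to the whole library, and in dKO Pdgfra was at 0.45, Dcn at 0.06 and Dpt at -0.56. In dKO, 3 of 10 genes were called higher and 1 lower, where 2.43% and 3.53% of all tested genes were. In control, 2 of 10 were called higher and 1 lower, where 1.24% and 1.11% were. The calls over all genes were 357 higher and 519 lower in dKO and 182 higher and 163 lower in control on this scale, against 618 higher and 469 lower in dKO and 280 higher and 51 lower in control on the library scale.

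**Figure D4:**
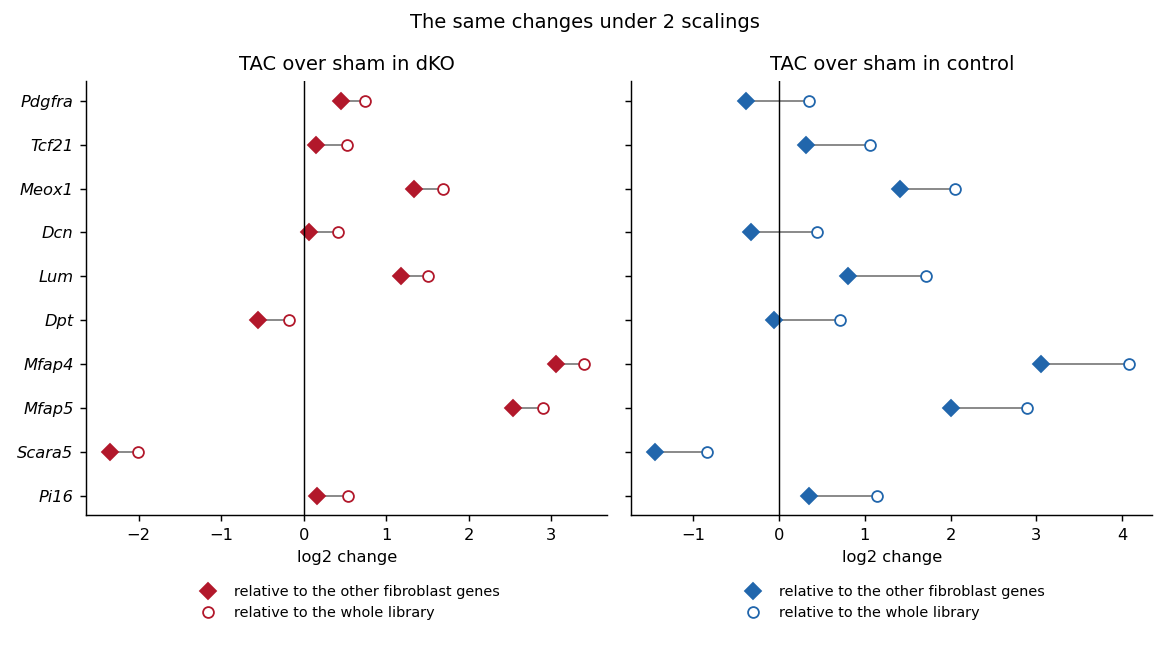
Log2 change after TAC, TAC over sham, for each gene in dKO (left) and control (right), relative to the 22 other fibroblast genes (filled diamonds) and relative to the whole library (open circles). Diamonds lie left of circles for all 10 genes in both genotypes, Mfap4 and Mfap5 stay at 2 or more, Scara5 stays below 0, and in control Pdgfra, Dcn and Dpt change side.

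Markers of macrophages and of the epicardium were also highest in control TAC 3 within control. Of 12 macrophage markers 0 were at 0 counts in any library, and their summed level was 286 to 512 CPM in dKO TAC, 279 to 337 CPM in dKO sham, 242 to 748 CPM in control TAC and 180 to 367 CPM in control sham. After TAC 0 of 12 were called in either genotype, with medians of 0.37 in dKO and 1.07 in control and Lyz2 at 0.38 ± 0.42 and 1.04 ± 0.42. Epicardial markers summed to 31.3 to 40.02 CPM in dKO TAC, 38.2 to 49.0 CPM in dKO sham, 38.1 to 88.5 CPM in control TAC and 18.5 to 77.1 CPM in control sham, with 0 of 8 called and Msln at 0.11 ± 0.55 in dKO and 1.13 ± 0.55 in control. Control TAC 3 was the highest library and control sham 3 or control sham 1 the lowest for the fibroblast, macrophage and epicardial sums within control. The epicardial sums otherwise had another order than the fibroblast sums. For them control TAC 1 was at 83.9 CPM, control sham 2 at 77.1 CPM and control TAC 2 at 38.1 CPM. The part of these cells in the changes of the 10 genes was not tested.

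Endothelial markers were not highest in control TAC 3 within control. Their 12 genes summed to 1277 to 2096 CPM in dKO TAC, 2004 to 2648 CPM in dKO sham, 1804 to 2392 CPM in control TAC and 1711 to 2438 CPM in control sham. After TAC 0 were called, with Fabp4 at -0.69 ± 0.27 in dKO and -0.01 ± 0.27 in control. The median log2 change after TAC was -0.46 in dKO, where 1 of 12 lay above 0. In control it was 0.07, where 7 of 12 lay above 0. Pericyte and smooth muscle markers summed to 582.1 to 876 CPM in dKO TAC, 595 to 1189 CPM in dKO sham, 809 to 1202 CPM in control TAC and 830 to 1433 CPM in control sham. Of these 10 genes 0 were called in dKO and 1 in control, Cnn1, which encodes calponin of smooth muscle, at 4.81 ± 0.98 (edgeR, Benjamini-Hochberg adjusted p = 0.0289). Of 12 cardiomyocyte markers 1 was called lower in dKO, Ckm at -1.78 ± 0.39 (edgeR, Benjamini-Hochberg adjusted p = 0.0211), and 0 in control. Of the nerve sheath list 5 of 6 genes and of the blood and lymphocyte list 3 of 8 were tested, and 0 were called after TAC. Beside the counts of all these marker lists, 7.39% of all tested genes were called after TAC in dKO and 2.25% in control, in either direction.

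Genes of activated fibroblasts had larger changes than the 10 resident markers, a difference that was not tested. Of 16 such genes 12 were called higher after TAC in dKO and 12 in control, where 4.2% and 1.9% of all tested genes were, with medians of 4.26 and 4.53. Their summed level was 2760 to 4117 CPM in dKO TAC, 141 to 406 CPM in dKO sham, 924 to 10120 CPM in control TAC and 173 to 654 CPM in control sham. Postn, which encodes periostin, averaged 1006 CPM in dKO TAC and 33.3 CPM in dKO sham, and 1088 CPM in control TAC and 33.8 CPM in control sham. Its log2 change was 4.91 ± 0.85 in dKO and 5.01 ± 0.85 in control, and that of Thbs4, a thrombospondin, was 5.03 ± 0.70 and 4.88 ± 0.70 (edgeR, Benjamini-Hochberg adjusted p between 0.00371 and 0.0166). Mfap4, Mfap5 and Meox1 had changes of 1.69 to 4.08, between the medians of the other fibroblast list and the activated list.

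**Figure D5:**
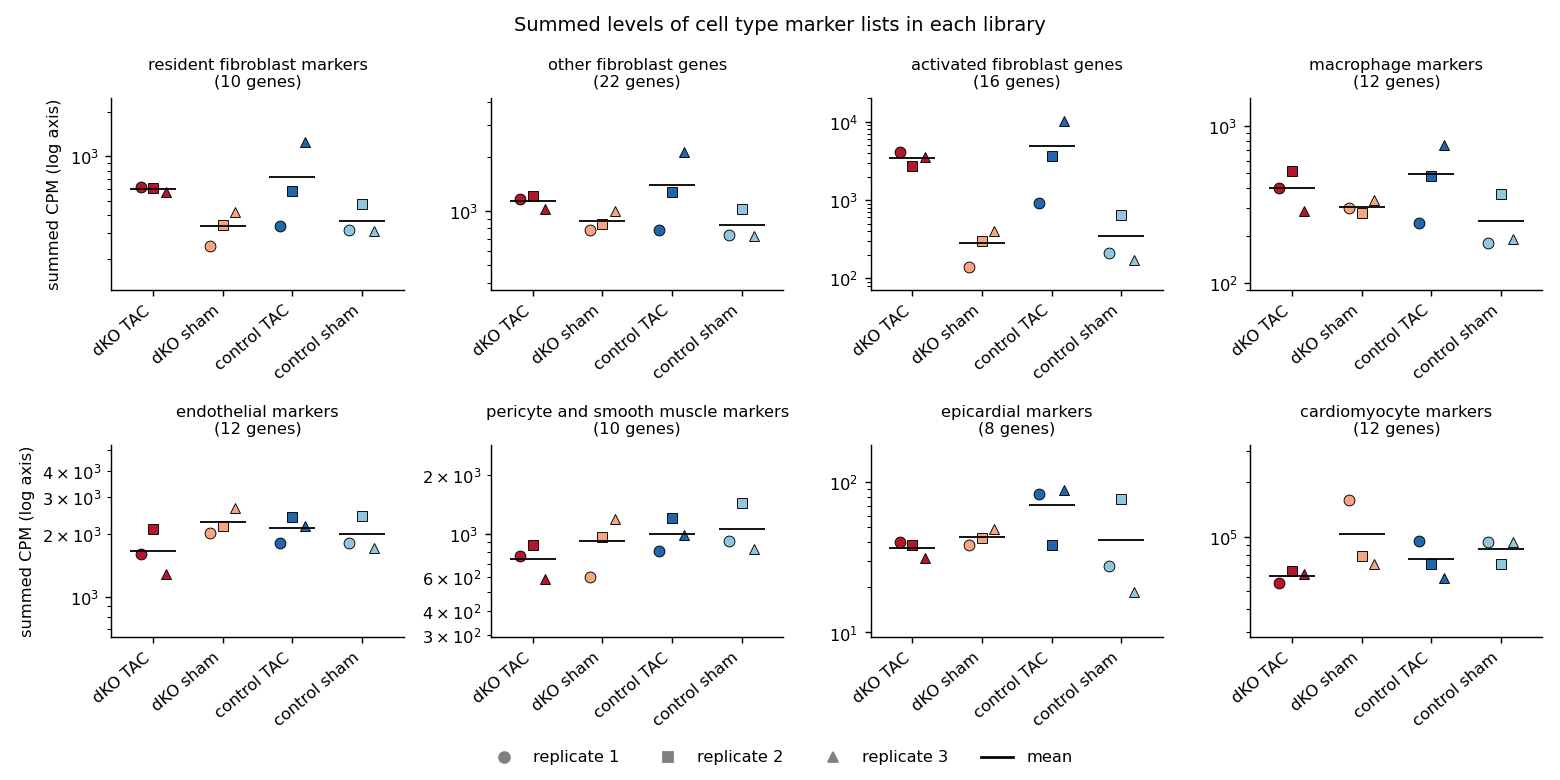
Summed level of 8 marker lists in CPM (log axis) in the 12 libraries by group, with symbols for replicates and a line at the mean. The activated fibroblast list separates TAC from sham in both genotypes, at 924 to 10120 CPM against 141 to 654 CPM, while the resident and other fibroblast lists overlap in control and the endothelial list lies between 1277 and 2648 CPM throughout.

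Relatives of the 10 genes were read from lists by family, beside 4.2% of all tested genes called higher after TAC in dKO and 1.9% in control. Of 6 other genes of the PDGF family 2 were called higher after TAC in dKO, the ligand gene Pdgfc at 2.13 ± 0.37 and Pdgfrl, a receptor-like gene, at 2.95 ± 0.80 (edgeR, Benjamini-Hochberg adjusted p = 0.00825 and 0.0437). Only these 2 of the 6 lay above 0 in dKO, and the median of the 6 was -0.13. In control 0 of 6 were called, and Pdgfrb, the receptor of pericytes, was at 0.12 ± 0.28. Of 13 other small leucine-rich proteoglycan genes 9 were tested and 1 was called in each genotype, Bgn, which encodes biglycan, at 2.32 ± 0.50 in dKO and 2.47 ± 0.50 in control (edgeR, Benjamini-Hochberg adjusted p = 0.0186 and 0.028). The difference between Bgn and its relatives Dcn and Lum was not tested.

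Of 10 other microfibril and elastic fibre genes 3 were called higher in dKO, Fbn1 (fibrillin-1) at 2.72 ± 0.65, Eln (elastin) at 2.71 ± 0.71 and Emilin1 at 1.42 ± 0.38 (edgeR, Benjamini-Hochberg adjusted p = 0.0284, 0.0397 and 0.0407). In control 2 were called higher, Mfap2 at 2.70 ± 0.60 and Emilin1 at 1.73 ± 0.38 (edgeR, Benjamini-Hochberg adjusted p = 0.0408 and 0.0399). The median change of this family was 1.59 in dKO and 1.70 in control. The 4 other class A scavenger receptor genes had changes of 0.51 to 1.56 in dKO and 0.61 to 2.07 in control on the library scale, with medians of 1.17 and 1.56 and 0 called. Colec12, the one with the most counts, was at 0.86 ± 0.38 in dKO and 0.61 ± 0.38 in control.

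Of 12 other transcription factors of the fibroblast lineage 1 was called in dKO, the homeobox gene Prrx1 at 0.89 ± 0.18 (edgeR, Benjamini-Hochberg adjusted p = 0.0136), and 0 in control. Gata4, in the same list and also a factor of cardiomyocytes, was at -0.04 ± 0.17 in control. Of 6 relatives of Pi16 in the CAP family 5 were tested, and 1 was called in control, Glipr1 at 2.94 ± 0.65 (edgeR, Benjamini-Hochberg adjusted p = 0.0399). Between dKO and control 0 genes of any of these lists were called, after TAC or after sham, where 0.428% and 0.068% of all tested genes were.

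The profiles of the 10 genes over the 12 libraries were compared as centred log2 CPM, by the root mean square of the differences. The closest pair was Tcf21 and Pi16 at 0.24 log2 units, followed by Dcn and Dpt at 0.29, Dpt and Pi16 at 0.36 and Dcn and Pi16 at 0.37. Pdgfra was nearest to Dcn at 0.46, and Mfap4 and Mfap5 were nearest to each other at 0.49. Scara5 was the farthest from the others, with Dpt as its nearest at 0.94. The mean profile of the 10 genes had a root mean square of 0.71, and among the 12035 genes that averaged 1 CPM or more the 8 closest to it were Ptk7 at 0.14, Fyb at 0.14, P3h3 at 0.17, Ms4a6b at 0.17, Rai14 at 0.17, Slco2a1 at 0.18, Meg3 at 0.18 and Clip3 at 0.18. These libraries share depth and preparation, so the distances are a description with no test.

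The nearest gene of all is given for 9 of the genes and was outside the 10 for each. It was Marcks for Dcn at 0.11, Sulf1 for Lum at 0.24, Pld4 for Tcf21 at 0.17 and Icam1 for Dpt at 0.18. For Mfap4 it was Col5a2 at 0.35, for Mfap5 Fstl1 at 0.25, for Scara5 Gfra1 at 0.31, for Pi16 Ecm1 at 0.12 and for Meox1 Dbn1 at 0.26.

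The promoters of Tcf21 and Pi16 are shown because theirs were the closest profiles of the 10. Sequences are from RefSeq on GRCm38.p6, from 250 bases before to 50 after the gene's start, and capitals mark CAGCTG, an E-box form that basic helix-loop-helix factors can bind. Tcf21 is at chr10:22820094-22820393 on the minus strand and Pi16 at chr17:29318632-29318931 on the plus strand, which lies within the GENCODE span of Pi16.
Tcf21: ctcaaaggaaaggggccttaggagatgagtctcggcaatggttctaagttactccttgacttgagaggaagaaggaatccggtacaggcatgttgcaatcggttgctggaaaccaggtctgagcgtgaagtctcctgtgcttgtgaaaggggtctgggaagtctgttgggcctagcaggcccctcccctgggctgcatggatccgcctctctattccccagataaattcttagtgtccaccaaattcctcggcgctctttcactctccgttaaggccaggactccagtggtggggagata
Pi16: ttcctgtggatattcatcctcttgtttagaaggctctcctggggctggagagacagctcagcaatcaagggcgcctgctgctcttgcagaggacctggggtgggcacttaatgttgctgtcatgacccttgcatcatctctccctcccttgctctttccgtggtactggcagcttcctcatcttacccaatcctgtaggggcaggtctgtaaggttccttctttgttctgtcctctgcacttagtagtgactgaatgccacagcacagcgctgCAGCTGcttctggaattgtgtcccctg

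Promoters of 4 of the 10 genes were at hand, those of Pdgfra, Tcf21, Dpt and Pi16. CAGCTG, which reads the same on both strands, occurred once in Pi16 at +24, not in Tcf21 or Pdgfra, and 2 times in Dpt, and it is in 16.3% of 32851 mouse promoters of that length. The CArG box, the site of the serum response factor that the MRTF proteins work with, was searched on both strands and was in none of the 4 windows, as in all but 1.63% of promoters. CATTCC, a TEAD site, was in none of the 4 and in 14.7% of all, and TGANTCA, an AP-1 site, in none of the 4 and in 7.81% of all. The wider E-box CANNTG, which includes CAGCTG, was in Pdgfra, Dpt and Pi16 and in 72.3% of all.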

How the data were processed

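RNA of 12 cardiomyocyte preparations was sequenced, with 3 libraries in each of 4 groups. The authors deposited raw read counts per gene for 49568 genes. Reads were handled with Trimmomatic 0.36, STAR 2.5.2b, Subread 1.5.0p3 and featureCounts and the genome was GRCm38.p5, as named in the submitters' processing notes. Settings, annotation and the use of strand in counting are not stated in the labels, so reads of overlapping genes may be shared.

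Genes were tested with edgeR 4.0.16 (R 4.3.3): TMM scaling, edgeR's filter by group (14712 genes kept), a quasi-likelihood fit of 4 group means on all 12 libraries (8 residual degrees of freedom) and Benjamini-Hochberg adjustment over all tested genes for each of 5 comparisons. The standard error is the log2 change divided by the root of F. Levels are counts-per-million (CPM) on TMM-scaled library sizes, and exon lengths, IDs and positions are from GENCODE mouse release M21. A count of 3, the limit that a count of 0 allows, is 0.0935 to 0.184 CPM over the libraries and covers counting error only. Alternatives used DESeq2 1.42.0 and limma 3.58.1, and figures matplotlib 3.10.9 under Python 3.11.15. The code was tested on simulated data.

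The members and the 16 gene lists were chosen with earlier results of these data known. In the other lists the genes named were the up to 2 called genes with the smallest p per comparison, or else the gene with the highest mean CPM. Emilin1 and Clec3b were in addition named in the genotype where they fell outside this rule, after their values were seen. Clec3b was also named for the comparisons between genotypes, and Ddr2, Fbln1 and Tnxb as examples of their list, after values were seen. Cd34, Fbln2 and Mmp2 were named in the same way, as genes of that list with higher means after TAC in control. Ly6a was named beside Cd34 for its large part in the sum of that list. The gene closest in profile to Pdgfra is not reported here. No libraries were duplicates. Replicate numbers were shared across groups, and whether they pair the libraries was not settled.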

Additional observations from a re-analysis of the deposited data

How the results depend on the processing

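With each library left out, 0 to 6 of the 10 genes were called for TAC in control (3 with all), 1 to 5 in dKO (4 with all) and 0 to 1 for dKO over control after TAC (0 with all). For TAC in control, 5 were called by DESeq2, 5 without the count filter and 0 with the compared groups alone. For TAC in dKO, 2 were called without both libraries that stood apart. For dKO over control after TAC, DESeq2, no filter and leaving out both libraries each called 1. Over all genes, calls for TAC in control numbered 331, against 1005 (DESeq2), 175 (limma-voom), 936 (no filter), 771 (without both libraries) and 2 (compared groups alone), with 2 to 1130 as libraries were left out. For TAC in dKO they numbered 1087, against 2376 (DESeq2) and 647 (compared groups alone), with 210 to 1389 as libraries were left out. For dKO over control after sham they numbered 10, against 62 (DESeq2), 53 (no filter), 5 (compared groups alone), 19 (length trend removed) and 27 (fibroblast scale), with 5 to 12 as libraries were left out. After TAC they numbered 63, against 320 (DESeq2), 129 (no filter), 508 (without both libraries) and 128 (length trend removed), with 8 to 252. For the interaction they numbered 0, against 8 (DESeq2), 5 (no filter) and 2 (without both libraries), with 0 to 1. The cause of these shifts was not tested.

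Changes of sign concerned values that were not called. On the fibroblast scale, log2 changes for TAC in control were -0.38 (Pdgfra), -0.32 (Dcn) and -0.053 (Dpt). For dKO over control there they were -0.002 (Mfap5) after sham, and 0.29 (Pdgfra), 0.045 (Dcn), 0.20 (Tcf21), 0.43 (Mfap4), 0.06 (Pi16) and 0.20 (Meox1) after TAC. The interaction there was 0.38 (Dcn), 0.36 (Lum) and 0.013 (Mfap4). With the length trend removed, Dpt was at 0.036 for TAC in dKO and at -0.086 after sham, Mfap5 at -0.036 after sham and Pdgfra at 0.03 after TAC. With limma-voom after TAC, Pdgfra was at 0.079, Tcf21 at 0.02, Mfap4 at 0.51 and Meox1 at 0.05, and the interaction was 0.15 (Dcn) and 0.19 (Lum). The interaction of Mfap5 was -0.005 with RLE scaling and -0.003 with DESeq2. Without both libraries that stood apart, dKO over control was 0.027 (Pdgfra) and 0.10 (Scara5) after sham and 0.12 (Pdgfra) and 0.026 (Mfap4) after TAC.

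As libraries were left out in turn, the log2 change for TAC in control ran from -0.10 to 0.73 for Dcn and -0.12 to 0.63 for Pdgfra. For dKO over control after sham it ran from -0.006 to 0.88 for Meox1, -0.17 to 0.38 for Mfap5, -0.82 to 0.027 for Pdgfra and -0.55 to 0.10 for Scara5. After TAC it ran from -0.56 to 0.28 for Dcn, -0.98 to 0.34 for Lum, -0.38 to 0.20 for Meox1, -0.74 to 1.43 for Mfap4, -0.39 to 0.87 for Mfap5, -0.29 to 0.47 for Pdgfra, -0.59 to 0.31 for Pi16 and -0.46 to 0.30 for Tcf21. The interaction ran from -0.31 to 0.52 for Dcn, -0.61 to 0.71 for Lum, -1.26 to 0.99 for Mfap4, -0.43 to 0.81 for Mfap5 and -0.049 to 0.88 for Pdgfra.

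Whether the replicate numbers pair the libraries was not settled. Of 18 pairs with the same number 11 correlated above 0.1 in their deviations (-0.66 to 0.51), and 5 of 12 libraries correlated best with their own number. The pairs at -0.66 and -0.62 held dKO TAC 2 and dKO sham 1, which stood apart. With the replicate block, 41 genes were called for dKO over control after TAC, Lum was called for TAC in dKO at 1.68 and Mfap4 in control was at 3.59 and not called (edgeR, Benjamini-Hochberg adjusted p = 0.0483 and 0.053). With the block, dKO over control after TAC was 0.14 (Pdgfra), 0.20 (Mfap4) and 0.012 (Meox1), and the interaction was 0.12 (Dcn) and 0.20 (Lum). With the block and the length trend removed, Dpt was at 0.14 for TAC in dKO. dKO over control was then -0.15 (Dpt) and -0.086 (Mfap5) after sham and 0.15 (Pdgfra), 0.29 (Mfap4) and 0.006 (Meox1) after TAC, and the interaction was 0.052 (Dcn), 0.38 (Lum) and 0.26 (Mfap4).

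Depth was no limit for the sum of the 10 genes, at 3970 to 38362 counts, but Tcf21 fell to 51. Limits are the 3 libraries per group, the spread within control TAC and the unknown pooling of hearts.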
